A study of Homo sapiens with 15 samples.

Results

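Solute carriers are membrane proteins that move amino acids, sugars, metals, ions, vitamins and metabolites across membranes. The genes described here are those whose symbol in the deposited table is SLC, a family number, the letter A and a member number, without SLC7A11 and SLC3A2. This rule found 140 of the 12261 genes in the table, from 40 families. By textbook location of the protein, 55 belong to the plasma membrane, 39 are mitochondrial carriers of the SLC25A family, 18 belong to the ER or Golgi, 13 to endosomes, lysosomes or vesicles, and 15 to other or mixed places. SLC25A17, a peroxisomal carrier, is counted with its family.

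The cells were HEK-293 Trex (HEK-293TO), a human embryonic kidney line in long use, in which doxycycline switches on an inserted gene. The inserted gene encoded CLIP-tagged UPF1 isoform 1 (UPF1-1), CLIP-tagged UPF1 isoform 2 (UPF1-2) or, in the control line, GFP, and all 3 lines received 200 ng/mL doxycycline. There were 3 libraries in each of 5 groups, namely UPF1-1 IP, UPF1-2 IP, UPF1-1 total RNA, UPF1-2 total RNA and GFP total RNA, where IP is RNA purified with the tagged protein. Each protein was in a line of its own, so effects of the protein and of the line cannot be told apart, and no label says that the cells' own UPF1 was removed. No GFP purification was analysed here, so binding to the matrix or the tag cannot be told apart from recovery with UPF1. Nothing in the labels says that the replicates were separate cultures, so p-values measure the spread between these libraries, which may be technical. In bulk RNA, fewer cells with an mRNA and less of it per cell cannot be told apart.

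UPF1 is an RNA helicase that is needed for nonsense-mediated decay, the pathway that removes mRNAs with early stop codons and many normal mRNAs with long 3′ untranslated regions. Plasma membrane, ER and lysosomal carriers are made by ribosomes at the ER. Most SLC25A carriers are made in the cytosol and then inserted into the inner mitochondrial membrane, where they exchange ATP, phosphate, citrate, amino acids and cofactors between mitochondria and cytosol.

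UPF1 mRNA, which checks the labels, had a mean total RNA level of 129 ± 49.8 TPM with UPF1-1, 104 ± 57.9 TPM with UPF1-2 and 5.20 ± 2.93 TPM with GFP (SD, n = 3 each). TPM is a level relative to all transcripts of a library, already divided by transcript length. The listed genes together made up 44.7% to 69.9% of all TPM in IP libraries and 12.2% to 19.0% in total RNA libraries, and replicate 3 was the highest in every group. For the tests, TPM plus 0.5 was put on a log2 scale and library medians were set equal. Every difference below is thus relative to the median level of the library, called the median gene. Of the HEK-293 marker list, 5 of 8 genes were in the table (VIM, KRT8, KRT18, NEFL and INA), with summed levels of 182 to 271 TPM in UPF1-1, 151 to 271 TPM in UPF1-2 and 162 to 242 TPM in GFP total RNA.

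Carriers of ATP and phosphate had by far the highest levels among the solute carriers. In total RNA SLC25A5, an ADP/ATP carrier, had 80.0, 78.9 and 156 TPM with UPF1-1, 75.9, 76.3 and 171 TPM with UPF1-2, and 80.4, 84.1 and 161 TPM with GFP. The 3 lines overlapped, and within each line replicate 3 was the high one. SLC25A3, which brings phosphate into the matrix, averaged 102 TPM in UPF1-1, 97.3 TPM in UPF1-2 and 100.07 TPM in GFP total RNA. SLC25A1, the citrate carrier, followed with 43.5, 41.1 and 41.2 TPM in UPF1-1, UPF1-2 and GFP total RNA. SLC25A6, which also carries ADP and ATP, averaged 37.9, 31.1 and 35.5 TPM in the same order of lines. Another ADP/ATP carrier, SLC25A4, the muscle and heart form, was far lower at 3.71, 3.79 and 3.95 TPM. ADP/ATP carriers have near-identical copies and pseudogenes, as do SLC6A8 and the pair SLC25A51 and SLC25A52, so the split of reads among them is uncertain.

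SLC25A3, SLC25A5 and SLC25A6 together held 40.4% ± 0.784 of all solute carrier TPM in UPF1-1 total RNA, 40.6% ± 1.34 in UPF1-2 and 42.0% ± 0.295 in GFP total RNA (SD, n = 3 each). The median SLC25A gene was at 3.05 TPM in UPF1-1, 2.79 TPM in UPF1-2 and 2.65 TPM in GFP total RNA. The median plasma membrane carrier was lower, at 0.913, 0.987 and 0.949 TPM in the same lines. The highest plasma membrane carrier was SLC1A5, which takes up glutamine and other neutral amino acids, with 8.33 TPM in UPF1-1, 8.39 TPM in UPF1-2 and 9.07 TPM in GFP total RNA. The highest member of the ER and Golgi class was SLC35A4 of the nucleotide sugar transporter family, at 6.87, 7.27 and 6.86 TPM. The highest of the endosome, lysosome and vesicle class was SLC48A1, a heme transporter, at 1.39, 1.33 and 1.20 TPM.

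Start sequences of the carriers that the recovery results turn on are printed here. The SLC25A family held both the best recovered abundant mRNAs and abundant mRNAs recovered below the median gene. Each runs from 20 bases before to 15 bases after the RefSeq start in build GRCh38.p14, 5′ to 3′ on the strand of the gene, and the capitals mark the first 4 transcribed bases. SLC25A5 lies at chrX:119468424-119468458, SLC25A6 at chrX:1392099-1392133 on the minus strand, SLC25A3 at chr12:98593666-98593700 and SLC25A4 at chr4:185143246-185143280. SLC25A10 lies at chr17:81712264-81712298, SLC25A46 at chr5:110738987-110739021, SLC25A15 at chr13:40789591-40789625 and SLC25A11 at chr17:4940032-4940066 on the minus strand.
SLC25A5: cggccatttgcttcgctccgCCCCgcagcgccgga
SLC25A6: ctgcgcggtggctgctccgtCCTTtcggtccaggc
SLC25A3: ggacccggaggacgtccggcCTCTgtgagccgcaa
SLC25A4: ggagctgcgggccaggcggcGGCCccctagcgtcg
SLC25A10: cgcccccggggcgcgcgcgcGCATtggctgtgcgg
SLC25A46: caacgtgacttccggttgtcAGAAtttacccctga
SLC25A15: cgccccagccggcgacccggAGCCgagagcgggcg
SLC25A11: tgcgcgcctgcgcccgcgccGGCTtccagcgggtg
SLC25A5, SLC25A6 and SLC25A3 start with C and 3 pyrimidines (C or T), while the other carriers shown do not. The start letters were looked at after the recovery values were known, and a match is a description of the annotated start only.

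In total RNA, few solute carrier mRNAs differed between UPF1-1 and GFP cells, and those that fell encode plasma membrane proteins. Of 140 members, 83 passed the filter of at least 1 TPM in at least 3 of 9 libraries. Against GFP, 1 of 83 was higher and 5 were lower in UPF1-1 cells (limma on log2 TPM, Benjamini-Hochberg adjusted p under 0.05), where 16.2% of all genes were called, 8.38% of 9325 genes higher and 7.79% lower. All 5 that fell are among the 30 plasma membrane members tested, and the member that rose is one of the 31 SLC25A members tested. The plasma membrane median was -0.07 and the SLC25A median 0.02 on the log2 scale, against -0.01 over all genes tested. Most of the members that changed are below 5 TPM and are named because they passed the test.

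SLC7A2, an uptake carrier for arginine, lysine and ornithine, had 1.13, 1.29 and 1.27 TPM in UPF1-1, against 1.47, 1.76 and 1.94 TPM in GFP total RNA. All UPF1-1 libraries were below all GFP libraries. The log2 difference was -0.45 ± 0.07 (SE, adjusted p = 0.00567, limma), and it was negative in 3 of 3 replicate pairs. SLC39A10, a zinc importer, had 0.870, 0.773 and 0.678 TPM in UPF1-1 and 1.07, 1.19 and 1.18 TPM in GFP total RNA, again without overlap. Its log2 difference was -0.46 ± 0.09 (SE, adjusted p = 0.0120, limma). SLC39A8, which imports zinc and manganese, had 2.41, 2.64 and 1.57 TPM in UPF1-1 and 3.24, 2.95 and 2.19 TPM in GFP total RNA. These ranges overlapped, but each UPF1-1 library was below the GFP library of its number, with a log2 difference of -0.38 (adjusted p = 0.0132, limma).

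SLC12A2, a sodium, potassium and chloride cotransporter, fell by 0.27 on the log2 scale, and SLC16A1, a lactate and pyruvate transporter, fell by 0.26 (adjusted p of 0.0439 and 0.0303, limma). SLC16A1 had 2.82, 2.97 and 3.26 TPM in UPF1-1 and 3.03, 3.31 and 4.09 TPM in GFP total RNA. SLC25A38, the glycine carrier needed to start heme synthesis, was the member that rose. It had 6.67, 6.22 and 12.8 TPM in UPF1-1 and 4.42, 5.11 and 9.81 TPM in GFP total RNA, where the groups overlapped only through the high replicate 3 of GFP. Its log2 difference was 0.30 ± 0.07 (SE, adjusted p = 0.0256, limma).

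All 6 calls need the pairing by replicate number. Without the replicate block, 0 of 83 members were called (2 at an unadjusted p under 0.05, limma), 0 with library medians left unequal, and 0 without replicate 2. Over all 9325 genes, 11 were higher and 5 lower without the block, against 781 and 726 with it. With unequal medians 266 genes were higher and 35 lower, and without replicate 2 the counts were 135 and 71. Without the filter, 10 of 140 were called, where 895 of 12261 genes were higher and 661 lower. Among the 10 was SLC1A4, a carrier of alanine, serine and cysteine, with a log2 difference of 0.46 (adjusted p = 0.00997, limma). SLC1A4 was at 0.736, 0.661 and 1.34 TPM in UPF1-1 and at 0.375, 0.337 and 0.723 TPM in GFP total RNA. The authors' deposited table gave 0 of 140 members a q-value under 0.05 in this comparison, where 0.368% of its genes were, and the lowest q among members was 0.117 for SLC1A4.

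**Figure D1:**
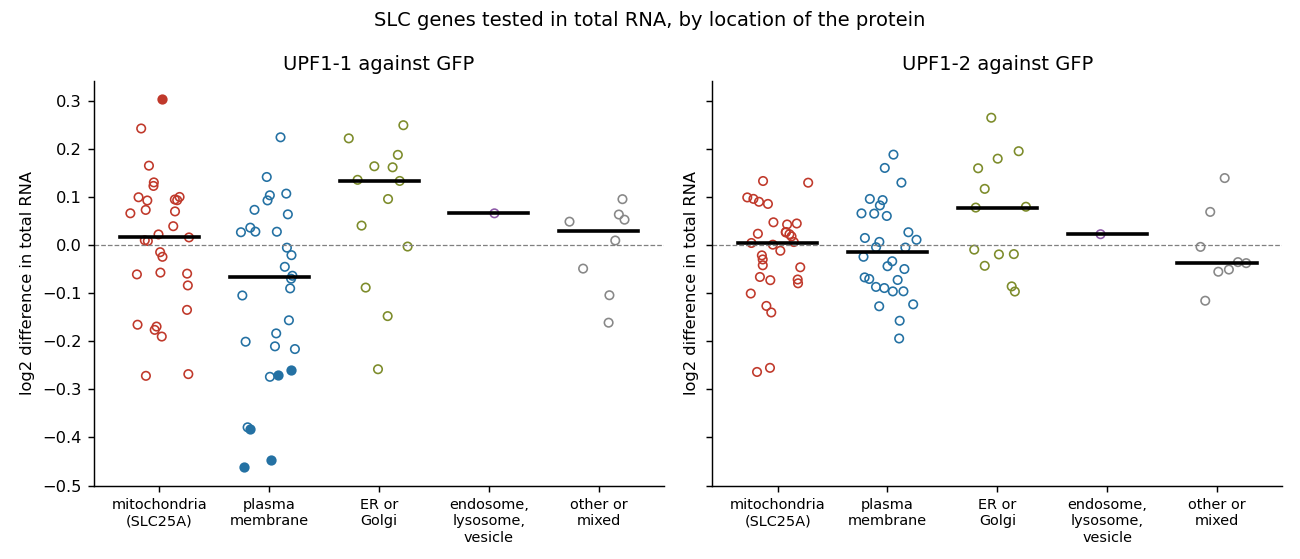
Log2 difference in total RNA of each of the 83 tested solute carrier genes (points), by location of the protein, for UPF1-1 against GFP and UPF1-2 against GFP. Filled points passed adjusted p 0.05, open points did not, and black bars are medians. The 5 filled points below 0 with UPF1-1 are plasma membrane genes, and no point is filled with UPF1-2.

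With UPF1-2, no solute carrier mRNA passed the test against the same GFP libraries. The count was 0 of 83 (limma, adjusted p under 0.05), 5 members had an unadjusted p under 0.05, and 0.375% of all genes were called, 0.279% higher and 0.0965% lower. SLC25A6 came nearest, with a log2 difference of -0.26 ± 0.06 (SE, adjusted p = 0.164, limma). The authors' deposited table also gave 0 of 140 members a q-value under 0.05, where 0.0327% of its genes were.

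Directly compared, UPF1-1 and UPF1-2 total RNA differed in 6 of 83 members, 4 higher and 2 lower in UPF1-1, where 9.51% of all genes were called, 5.49% higher and 4.02% lower. With library upper quartiles set equal the split turned round, to 2 members higher and 5 lower, and to 347 higher and 591 lower among all genes, against 512 and 375 with medians equal. The authors' deposited table gave 0 of 140 members a q-value under 0.05 here, where 0.139% of its genes were, and the lowest q among members was 0.662 for SLC1A4. SLC7A2 was lower in UPF1-1 by a log2 difference of -0.35 (adjusted p = 0.0243, limma), with 1.06, 1.66 and 2.29 TPM in the UPF1-2 libraries beside the UPF1-1 values given above. SLC6A8, the creatine transporter, was also lower, at -0.28, with 2.78, 2.87 and 11.5 TPM in UPF1-1 and 3.07, 3.42 and 14.4 TPM in UPF1-2. SLC25A38 was higher in UPF1-1 by 0.32, where UPF1-2 had 4.58, 4.603 and 10.6 TPM. SLC25A6 was higher by 0.27, with 23.5, 21.0 and 69.3 TPM in UPF1-1 and 16.6, 16.9 and 59.9 TPM in UPF1-2. SLC39A13, a zinc transporter of the Golgi and ER, was higher by 0.33, and SLC39A1, a zinc importer at the surface, by 0.27. All 6 calls were lost without the block, with unequal medians and without replicate 2 (0 of each). Most calls over all genes were lost in the same settings, with 0 left without the block, 74 higher and 15 lower with unequal medians, and 13 higher and 4 lower without replicate 2.

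In the IPs, solute carrier mRNAs as a whole were recovered near or a little below the typical gene, and the families split. Recovery is the log2 difference between IP and total RNA of the same line and replicate number after the medians are set equal. A value of 0 means that a gene moved as the library median did. Over all genes tested, 42.8% were above 0 with either isoform. Of 140 members, 138 could be tested in 12 libraries. Of these, 68 passed the filter only through their higher TPM in the IPs and 70 passed on total RNA alone. With UPF1-1, 31 of 138 were recovered above and 61 below the median gene, where 74.7% of 11969 genes were called, 30.8% above and 43.9% below. With UPF1-2, the counts were 36 above and 73 below, where 75.7% of all genes were called, 31.5% above and 44.2% below. The median member stood at -0.21 with UPF1-1 and -0.38 with UPF1-2, against -0.16 and -0.15 over all genes tested. The counts above and below depended on the pseudocount. With 0.1 TPM in place of 0.5, 36 members were above and 38 below with UPF1-1, and 41 and 59 with UPF1-2. All genes then had 3987 above and 4596 below with UPF1-1, and 3995 and 4698 with UPF1-2. With 1 TPM, 33 members were above and 73 below with UPF1-1, and 33 and 87 with UPF1-2. All genes then had 3622 above and 5562 below, and 3754 and 5605.

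Raw TPM was higher in the IPs for nearly all members, as it was for the listed genes together. The typical gene rose by 2.40 with UPF1-1 and 2.38 with UPF1-2 on the log2 scale when medians were not set equal. On that scale 135 of 138 members were called higher and 1 was called lower in the IP with either isoform. Most genes rose in the same way. In the UPF1-1 line, 11464 of the 11969 genes tested were called up in the IP while 150 were called down. The UPF1-2 line had 11485 genes up, against 128 down. The words "above" and "below" thus hold only relative to the library median.

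SLC25A mRNAs had a higher median recovery than plasma membrane carrier mRNAs with both isoforms, by a small margin in one setting with UPF1-1 given below. With UPF1-1, 16 of 39 SLC25A members were above and 13 below the median gene, and 8 of 53 plasma membrane members were above and 29 below. With UPF1-2, 21 of 39 SLC25A members were above and 14 below, and 9 of 53 plasma membrane members were above and 33 below. Over all genes, 30.8% were above and 43.9% below with UPF1-1, and 31.5% and 44.2% with UPF1-2. Many members of both classes passed the filter only through the IPs. Among those that passed on total RNA, 13 of 29 SLC25A members were above and 10 below with UPF1-1, and 7 of 24 plasma membrane members were above and 9 below. With UPF1-2 these counts were 17 above and 10 below for SLC25A, and 8 above and 13 below for the plasma membrane. The share over all genes that passed on total RNA is not given, here or for the counts of such members below. Whether these counts differ from those of all such genes was not tested. The SLC25A median was 0.04 with UPF1-1 and 0.24 with UPF1-2, and the plasma membrane median was -0.36 and -0.61. The plasma membrane median minus the SLC25A median was therefore -0.40 with UPF1-1, and -0.35, -0.43 and -0.44 in its 3 replicates. With UPF1-2 it was -0.85, and -0.81, -0.79 and -0.81 in its replicates. The same quantity in total RNA was -0.08 for UPF1-1 against GFP and -0.02 for UPF1-2 against GFP.

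The size of this gap depended on members at low levels and on the pseudocount. Among members at 1 TPM or more in at least 3 total RNA libraries of the UPF1 lines (29 SLC25A and 24 plasma membrane genes), it was -0.28 with UPF1-1 and -0.67 with UPF1-2. With a pseudocount of 0.1 TPM as well, it was -0.09 with UPF1-1 and -0.61 with UPF1-2. Of all 70 members at that level, with the pseudocount of 0.5, 25 were above and 25 below with UPF1-1, and 30 above and 31 below with UPF1-2. With 0.1 TPM and all tested members, 10 of 53 plasma membrane genes were above and 18 below with UPF1-1, and 12 and 30 with UPF1-2. For the 39 SLC25A genes these counts were 18 and 11 with UPF1-1, and 21 and 11 with UPF1-2. For all 11969 genes they were 3987 above and 4596 below with UPF1-1, and 3995 and 4698 with UPF1-2.

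**Figure D2:**
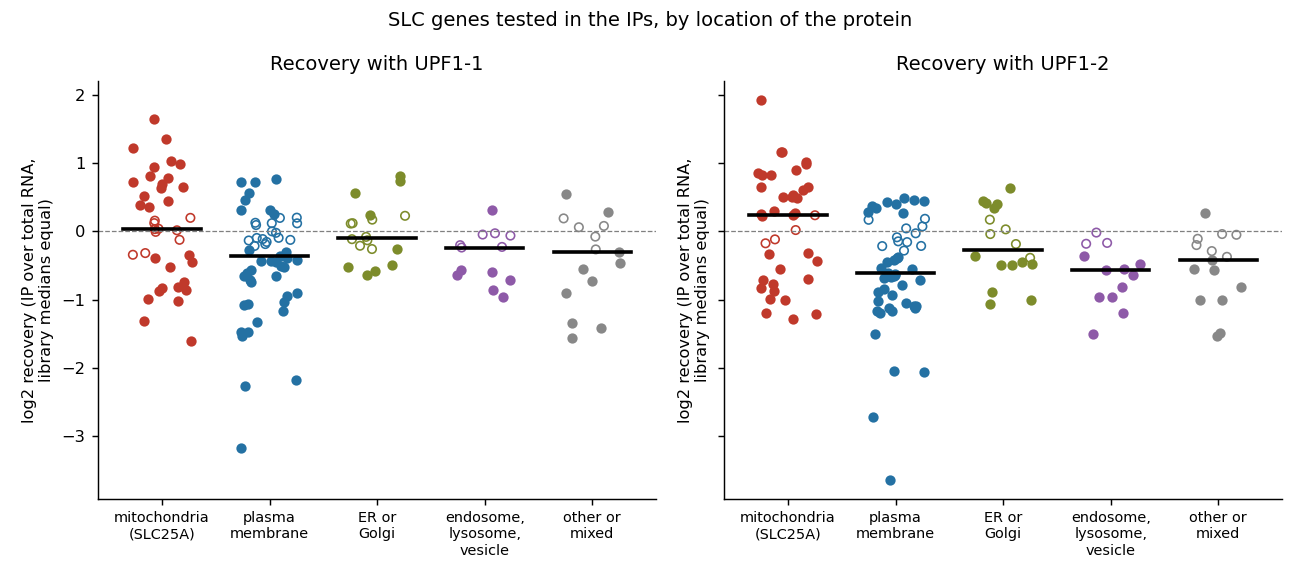
Log2 recovery (IP over total RNA, library medians equal) of the 138 tested solute carrier genes by location of the protein, with UPF1-1 and UPF1-2. Filled points passed adjusted p 0.05, open points did not, and black bars are class medians. The SLC25A median is 0.04 with UPF1-1 and 0.24 with UPF1-2, and the plasma membrane medians are -0.36 and -0.61.

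The best recovered abundant members were mitochondrial carriers. SLC25A10, which exchanges malate or succinate for phosphate, had 112, 138 and 200.5 TPM in the UPF1-1 IP and 5.23, 6.51 and 11.99 TPM in UPF1-1 total RNA. In the UPF1-2 line it had 130.4, 138 and 217 TPM in the IP and 4.69, 5.48 and 11.6 TPM in total RNA. Its recovery of 1.64 ± 0.14 with UPF1-1 and 1.92 ± 0.14 with UPF1-2 was higher than in 99.4% and 99.8% of all genes tested (SE; adjusted p of 1.32e-05 and 4.97e-06, limma). SLC25A46, an outer membrane relative of the carriers that acts in mitochondrial shape, had recoveries of 1.36 and 1.01 with UPF1-1 and UPF1-2. SLC25A15, the ornithine carrier of the urea cycle, had 1.22 and 1.17, and SLC25A11, the oxoglutarate and malate carrier, 1.03 and 1.16. SLC25A32, a folate and flavin carrier, had 0.98 and 0.83, and SLC25A38 had 0.73 and 0.99.

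All of these were above the median gene in 3 of 3 replicates with each isoform. They were named because they passed the test on these replicates, so this adds no support. SLC25A11 had 248, 265 and 377 TPM in the UPF1-1 IP and 18.4, 20.3 and 35.5 TPM in UPF1-1 total RNA, and SLC25A15 had 129.8, 133 and 174 TPM in that IP against 9.51, 9.42 and 11.4 TPM in total RNA. The 3 IP libraries lay above the 3 total RNA libraries by a wide margin for both.

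The ADP/ATP carriers were recovered below the median gene. SLC25A5 had 150.2, 130.5 and 374 TPM in the UPF1-1 IP and 80.0, 78.9 and 156 TPM in UPF1-1 total RNA, a much smaller gain than the typical gene showed. Its recovery was -1.60 ± 0.08 with UPF1-1 and -1.003 ± 0.08 with UPF1-2 (SE; adjusted p of 7.66e-07 and 8.79e-06, limma). SLC25A4 had recoveries of -1.30 and -1.20, and SLC25A6 of -0.81 and -0.70. The low SLC25A4 and the abundant SLC25A5 and SLC25A6 were thus all below the median gene. Over all genes tested, the lower quartile of recovery was -0.81 with UPF1-1 and -0.83 with UPF1-2, so SLC25A6 was not extreme. The SLC25A6 calls did not hold without the replicate block (adjusted p of 0.162 and 0.217, limma). Other SLC25A members below the median gene with both isoforms were SLC25A39, a glutathione carrier, at -0.87 and -0.86, SLC25A23, an ATP and magnesium for phosphate exchanger, at -0.85 and -1.19, SLC25A14, a relative of the uncoupling proteins, at -0.82 and -0.77, and SLC25A33, a pyrimidine nucleotide carrier, at -0.51 and -0.71. Without the replicate block, SLC25A23 lost both calls (adjusted p of 0.151 and 0.0513, limma). SLC25A33 lost its call with UPF1-1 only (adjusted p of 0.104, limma). SLC25A1 (-0.01 and 0.51) and SLC25A17 (0.20 and 0.49) passed the test, above the median gene, with UPF1-2 and not with UPF1-1. Neither gene was among the members whose recovery differed between isoforms, given below. SLC25A17 also lost its UPF1-2 call without the block (adjusted p of 0.137, limma).

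SLC25A3, SLC25A5 and SLC25A6 together held 23.0% ± 1.47 of all solute carrier TPM in the UPF1-1 IP and 29.4% ± 2.50 in the UPF1-2 IP, against 40.4% and 40.6% in total RNA of the same lines. The ranges of the 3 libraries did not overlap between IP and total RNA in either line.

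Across 39 SLC25A members, Spearman rho between recovery and the level in total RNA was -0.05 with UPF1-1 and 0.09 with UPF1-2, as a description, since the level enters both. Across the 53 plasma membrane members rho was 0.43 and 0.38, and over all genes 0.02 and 0.11. The pseudocount lowers the recovery of low genes, and its part in these values was not tested. Of the start letters, C and 3 pyrimidines began 4 of the 28 SLC25A members with a single RefSeq start, SLC25A3, SLC25A5, SLC25A6 and SLC25A21. The 4 had a median recovery of -0.58 with UPF1-1 and -0.23 with UPF1-2, and the others 0.14 and 0.28. Over all 5888 tested genes with a single start, 7.22% began this way, with medians of -0.20 against -0.08 for UPF1-1. Of all 34961 RefSeq start windows, 5.45% did, and 80 of the 140 members had exactly 1 window.

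**Figure D3:**
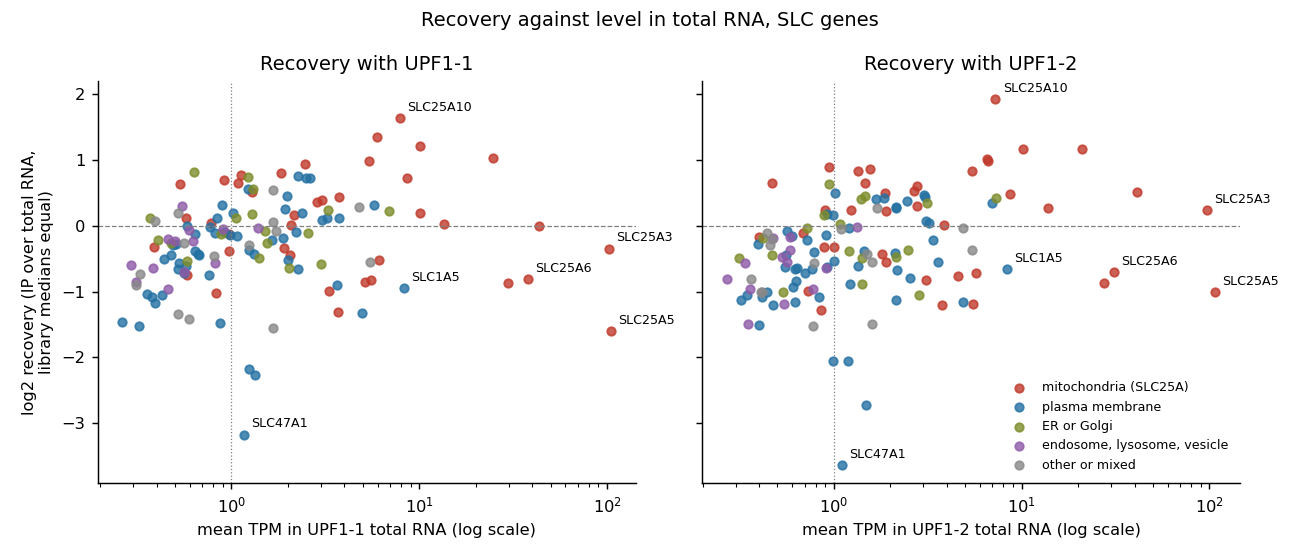
Log2 recovery of each solute carrier gene against its mean TPM in total RNA of the same line (log scale), for UPF1-1 and UPF1-2, coloured by location. The dotted line marks 1 TPM. The carriers above 30 TPM include SLC25A5 at -1.60 with UPF1-1, while SLC25A10 at 7.91 TPM reaches 1.64.

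Outside the SLC25A family, 15 of 99 members were above the median gene and 48 below with UPF1-1, and 15 above and 59 below with UPF1-2. Over all genes, 30.8% were above and 43.9% below with UPF1-1, and 31.5% and 44.2% with UPF1-2. Among the 41 of the 99 members that passed on total RNA, 12 were above and 15 below with UPF1-1. With UPF1-2, 13 were above and 21 below, again with no share over all such genes beside them. SLC6A8, at 5.73 TPM in UPF1-1 and 6.97 TPM in UPF1-2 total RNA, had recoveries of 0.31 and 0.34. It is the one member outside SLC25A above 5 TPM that passed above the median gene with both isoforms. Neither call held without the replicate block, with adjusted p of 0.645 for UPF1-1 and 0.610 for UPF1-2 (limma). With a replicate left out the adjusted p reached 0.106 and 0.0595 (limma). At lower levels, and named after their values were seen, SLC7A1 and SLC7A2 (cationic amino acids), SLC38A2 (glutamine and alanine), SLC31A1 (copper) and SLC39A14 (zinc, manganese and iron) also passed the test above the median gene with both isoforms. SLC38A2 had 0.73 and 0.46, and SLC39A14 had 0.72 and 0.38. Without the replicate block, SLC38A2 and SLC31A1 kept both calls. SLC7A2 and SLC39A14 then kept only the call with UPF1-1, and SLC7A1 kept neither.

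SLC1A5 was below, with 19.1, 18.2 and 42.0 TPM in the UPF1-1 IP and 5.72, 5.58 and 13.7 TPM in UPF1-1 total RNA. Its recovery was -0.94 with UPF1-1 and -0.65 with UPF1-2 (adjusted p of 5.49e-05 and 0.000467, limma). SLC27A5, a bile acid and fatty acid activating enzyme counted in the solute carriers by its symbol, had -0.54 with UPF1-1 (adjusted p = 0.0199, limma) and -0.37 with UPF1-2 (adjusted p = 0.0822, limma). The lowest recovery among the 138 members tested was that of SLC47A1, an exporter of organic cations. It had less TPM in the IP than in total RNA, with 0.515, 0.554 and 0.706 TPM in the UPF1-1 IP and 1.23, 1.17 and 1.09 TPM in UPF1-1 total RNA. In the UPF1-2 line it had 0.344, 0.129 and 0.275 TPM in the IP and 0.860, 1.23 and 1.24 TPM in total RNA. Its recovery was -3.17 with UPF1-1 and -3.63 with UPF1-2, lower than in all but 0.902% and 0.543% of genes tested.

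By substrate, the counts stand beside the 30.8% above and 43.9% below of all genes with UPF1-1, and 31.5% and 44.2% with UPF1-2, and in lists this small nothing is read from them. Amino acid carriers had 5 of 20 members above and 11 below with either isoform, with medians of -0.40 with UPF1-1 and -0.62 with UPF1-2. Metal carriers had 6 of 24 above and 8 below with UPF1-1 and 5 above and 14 below with UPF1-2, with medians of -0.08 and -0.45. Carboxylate and phosphate carriers outside mitochondria had 1 of 9 above and 6 below with either isoform, and the 8 carriers of organic ions or peptides had 0 above, with 5 below for UPF1-1 and 7 for UPF1-2. Sugar carriers had 2 of 10 above with either isoform and 3 below with UPF1-1, 5 below with UPF1-2. SLC37A4, which moves glucose 6-phosphate into the ER and led this class in level, had recoveries of 0.24 and 0.35. Of the remaining class leaders by level, SLC4A2 (an anion exchanger) had -0.90 and -0.55, SLC30A9 (a zinc transporter family member) 0.29 and -0.04, SLC10A3 -1.55 and -1.48, and SLC52A2 (a riboflavin transporter) -0.66 and -0.68. SLC2A1, the main glucose importer, had -0.21 with UPF1-1 (not past the test) and -0.38 with UPF1-2.

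Transcript length moved with recovery over all genes, and less across the solute carriers. From the deposited means of estimated count and TPM, the median SLC25A transcript was 0.960 times and the median plasma membrane carrier transcript 1.65 times as long as the median gene. Across all genes recovery rose with this length (Spearman rho 0.47 with UPF1-1 and 0.49 with UPF1-2), also among plasma membrane members (0.52 and 0.43) and less among SLC25A members (0.25 and 0.23). Across the 138 tested members rho was 0.23 and 0.12. Between these classes, SLC25A had the lower median length and the higher median recovery. The part of length in the results was not tested.

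Solute carrier mRNAs had a similar order of recovery with the 2 isoforms, as did all genes. Across 138 members the recoveries correlated at Pearson r = 0.92 and Spearman rho = 0.90, and across all genes at 0.94 and 0.92, as a description across genes that share libraries and depth. Both isoforms called 17.4% of members above and 40.6% below, beside 25.6% and 37.8% of all genes. The member called on different sides of the median gene was SLC25A3, and 1.02% of all genes were called so. SLC25A3 had 443, 444 and 547 TPM in the UPF1-1 IP and 102, 98.4 and 106 TPM in UPF1-1 total RNA, a recovery of -0.35 (adjusted p = 0.00301, limma). With UPF1-2 it had 685, 569 and 742 TPM in the IP and 87.4, 88.9 and 115 TPM in total RNA, a recovery of 0.24 (adjusted p = 0.0171, limma). Neither call held without the replicate block, with adjusted p of 0.167 for UPF1-1 and 0.326 for UPF1-2 (limma), and with a replicate left out the adjusted p reached 0.0549 and 0.236. The UPF1-2 IP libraries were all above the UPF1-1 IP libraries for this gene.

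**Figure D4:**
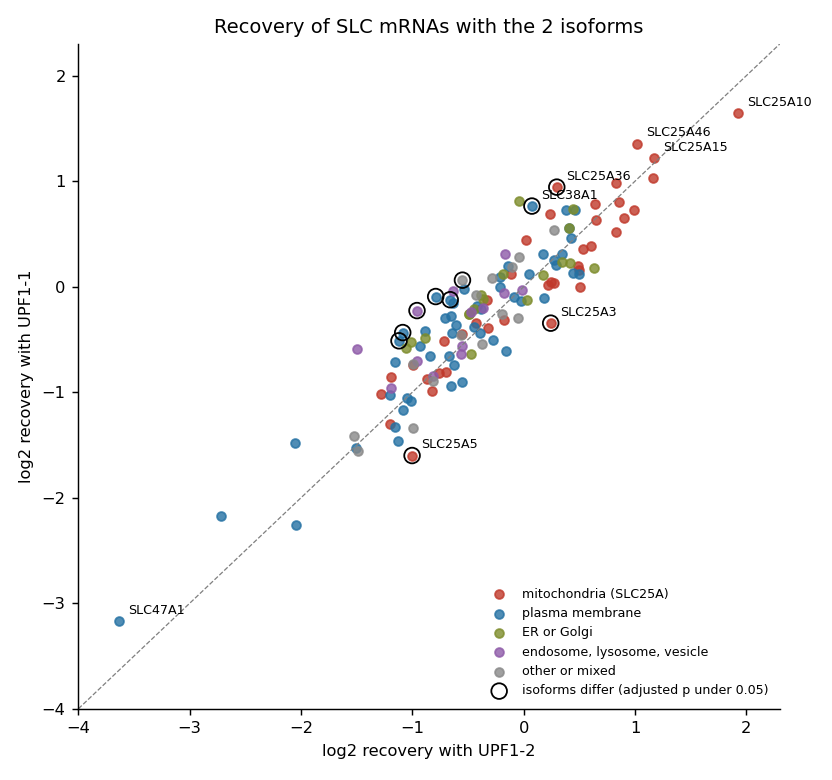
Log2 recovery of 138 solute carrier genes with UPF1-1 (vertical axis) against UPF1-2 (horizontal axis), coloured by location. The dashed line marks equal recovery, and circled points are the 10 genes whose recovery differed between isoforms at adjusted p under 0.05. SLC25A5 and SLC25A3 lie below the line, the other circled genes above it.

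The difference between isoforms, tested as recovery with UPF1-1 minus recovery with UPF1-2, passed for 10 of 138 members, where 10.7% of all genes did. It was positive for 8 members and negative for 2, where 4.43% and 6.27% of all genes were. With library upper quartiles set equal, 14 members were positive and 2 negative, and the split over all genes turned round, to 846 positive and 459 negative, against 530 and 750 with medians equal. The negative ones were SLC25A5, at -0.60 ± 0.12, and SLC25A3, at -0.59 ± 0.11 (SE; adjusted p of 0.0219 and 0.0194, limma). The positive ones held 5 of 53 plasma membrane members and 1 of 39 SLC25A members, SLC25A36, a pyrimidine nucleotide carrier. Among the 70 members that passed on total RNA, 5 were positive and 2 negative, with 3 of 24 plasma membrane members positive. Of 24 metal carriers, 4 were higher with UPF1-1. All 8 are below 5 TPM in total RNA and are named because they passed the test.

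SLC39A8 had 15.6, 15.1 and 12.2 TPM in the UPF1-1 IP and 10.2, 11.6 and 7.69 TPM in the UPF1-2 IP, and the difference in recovery was 0.70 ± 0.14 (SE, adjusted p = 0.0236, limma). SLC30A1, which exports zinc at the surface, had 4.25, 4.503 and 5.03 TPM in the UPF1-1 IP and 3.02, 3.35 and 2.92 TPM in the UPF1-2 IP, with a difference of 0.65. SLC39A6, another zinc importer, differed by 0.61, and SLC41A2, a magnesium transporter, by 0.61. The UPF1-1 IP values were above all UPF1-2 IP values for these metal carriers. SLC36A4, an amino acid transporter, differed by 0.73, SLC38A1, a glutamine transporter, by 0.69, SLC25A36 by 0.65 and SLC26A2, a sulfate transporter, by 0.54. SLC38A1 had 24.4, 18.1 and 45.4 TPM in the UPF1-1 IP and 14.6, 18.03 and 30.002 TPM in the UPF1-2 IP, which overlapped.

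As classes, the plasma membrane median of this difference was 0.15 and the SLC25A median -0.07, against -0.04 over all genes. The plasma membrane minus SLC25A value was 0.22, and 0.21, 0.20 and 0.27 in the 3 replicate pairs. The calls rest on the pairing and on single replicates: 0 of 138 were called without the replicate block (6 at an unadjusted p under 0.05, limma), 0 with unequal medians, 0 without replicate 1 and 0 without replicate 2, and 14 of 136 without replicate 3. Over all genes, 0 were called as well without the block, with unequal medians, without replicate 1 and without replicate 2, and 523 were positive and 581 negative without replicate 3.

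**Figure D5:**
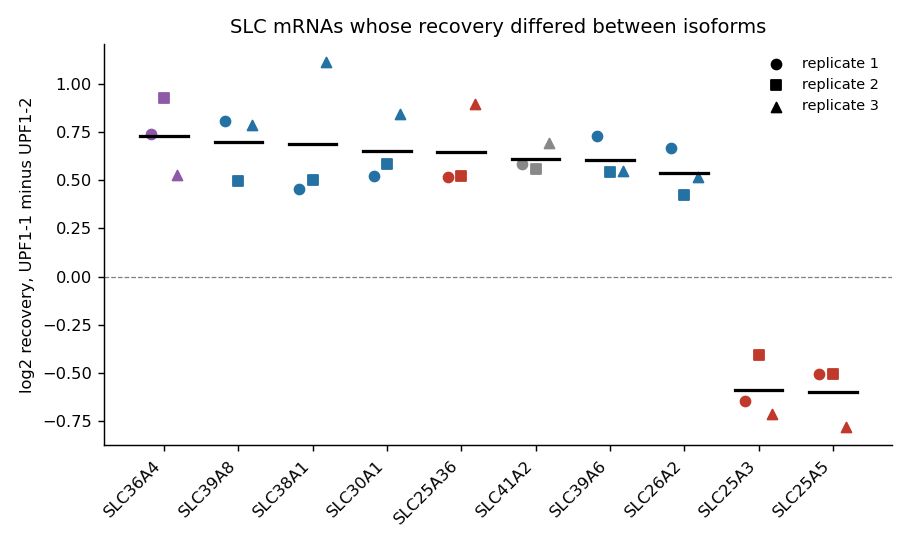
Difference in log2 recovery, UPF1-1 minus UPF1-2, in each of 3 replicate pairs (points by shape) for the 10 solute carrier genes that passed adjusted p 0.05, coloured by location as in the other plots. Black bars are the fitted differences, from 0.73 for SLC36A4 to -0.60 for SLC25A5, and every gene has all 3 points on one side of 0. The genes were picked by a test on these same pairs, so the shared side adds no support.

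Other membrane transport genes give the setting. Over all genes, 30.8% were recovered above and 43.9% below the median gene with UPF1-1, and 31.5% and 44.2% with UPF1-2. Of 7 listed P-type ion pumps in the table, 1 was recovered above and 6 below the median gene with UPF1-1, and 0 above and 5 below with UPF1-2. Of 16 V-ATPase subunits, which acidify vesicles, 4 were above and 9 below with either isoform. Of 9 ABC transporters, 2 were above and 4 below with UPF1-1, and 3 above and 4 below with UPF1-2. Of 13 genes that import carriers into the inner mitochondrial membrane, 6 were above and 6 below with either isoform. Of 8 mitochondrial pyruvate, calcium and channel genes, 3 were above and 4 below with UPF1-1, and 4 above and 3 below with UPF1-2. In total RNA of UPF1-1 against GFP, 0 of 4 tested P-type pumps were higher and 2 lower, with a median of -0.24 on the log2 scale. Of 7 tested ABC transporters 1 was higher and 1 lower, with a median of -0.24. The counts were 0 higher and 1 lower of 16 V-ATPase subunits, 0 and 2 of 13 carrier import genes, and 0 and 0 of 8 mitochondrial pyruvate, calcium and channel genes, beside the 8.38% higher and 7.79% lower of all genes.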

How the data were processed

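Total RNA and IP RNA were depleted of ribosomal RNA with Ribo-Zero and made into TruSeq libraries, per the labels' protocols. Cutadapt, kallisto, sleuth and hg19 are named, without versions, in the submitters' processing notes. The authors' deposited table gives TPM per library for 12261 genes, with sleuth q-values and p-values, log2 fold changes and mean natural log estimated counts, per the file headers. Reads and counts per library were not analysed here, and the deposited mean estimated counts were used for transcript length only. The depth behind a TPM value was thus not examined, and low values have no counting interval. Listed genes all reach a mean of 0.25 TPM in every group of total RNA.

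From TPM, log2(TPM + 0.5) was fitted with limma 3.58.1 (trend, 2-sided, R 4.3.3) on all genes that reach 1 TPM in 3 or more of the libraries fitted, 9325 in total RNA (9 libraries) and 11969 in the IP fit (12 libraries), with library medians set equal and Benjamini-Hochberg adjustment at 0.05. In total RNA, fold changes of low genes are understated by the pseudocount. In recovery it shrinks the raw rise in the IPs, which lowers the value of low genes after medians are set equal. With pseudocounts of 0.1, 0.5 and 1 TPM, the plasma membrane median was -0.10, -0.36 and -0.49 with UPF1-1. With UPF1-2 it was -0.39, -0.61 and -0.63. The block was the replicate number, or the line and number for IP against total RNA. After group means were removed, same-numbered libraries correlated at 0.70 to 0.95 (9 pairs) and 0.57 to 0.91 (18 pairs), so the numbers were used as pairs. Differently numbered libraries correlated at -0.89 to 0.80 and -0.86 to 0.74, so some of them deviated together as well. The fit was tested on simulated data.

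The members, classes, lists and tests were chosen with earlier results of these data known. Named by rule were, per comparison, up to 8 called members each way with a mean of at least 5 TPM in total RNA, the highest member of each class, SLC25A3 to SLC25A6, and UPF1. Sequences are from RefSeq (GRCh38.p14). Of 140 members, 119 had a start window. Alternatives were no block, unequal medians, equal upper quartiles, pseudocounts of 0.1 and 1, no filter or 5 TPM, and each replicate left out.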

Additional observations from a re-analysis of the deposited data

Results flagged for a closer look

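Recovery with UPF1-1 minus recovery with UPF1-2 passed the interaction test for 10 solute carrier genes. On the log2 scale it was 0.73 for SLC36A4, 0.70 for SLC39A8, 0.69 for SLC38A1, 0.65 for SLC30A1, 0.65 for SLC25A36, 0.61 for SLC41A2, 0.61 for SLC39A6 and 0.54 for SLC26A2, and it was -0.59 for SLC25A3 and -0.60 for SLC25A5. Each value had the same sign in 3 of 3 replicate pairs. The genes were picked by a test on these same pairs, so the shared sign adds no support. The counts called were 0 of 138 without the replicate block, without replicate 1 and without replicate 2. The share called, 10 of 138 members, is below the 10.7% of all genes.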

How the results depend on the processing

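The pairing by replicate number and the equal library medians carried the small differences. With no replicate block, calls among members numbered 0 for UPF1-1 against GFP, 0 for UPF1-1 against UPF1-2 and 0 for the isoform difference in recovery, where all genes had 11 higher and 5 lower in the first and 0 in the other 2. Recovery calls numbered 56 with UPF1-1 and 71 with UPF1-2. All 11969 genes had 2368 above and 3832 below with UPF1-1, and 2526 and 3965 with UPF1-2. With library medians unequal, with or without the block, the first 3 counts were 0 as well. With upper quartiles equal, the isoform difference had 16 calls, 14 of them positive. A pseudocount of 0.1 gave 3 calls for UPF1-1 against UPF1-2, and a pseudocount of 1 gave 5 for the isoform difference. All genes had 445 higher and 327 lower in the former, and 315 positive and 495 negative in the latter. Without the filter UPF1-1 against GFP had 10 calls, where 895 of 12261 genes were higher and 661 lower. At 5 TPM the calls were 1 for UPF1-1 against GFP, 3 for UPF1-1 against UPF1-2, 56 for recovery with UPF1-1 and 69 with UPF1-2. Of 3777 genes, 432 were then higher and 283 lower for UPF1-1 against GFP, and 279 and 173 for UPF1-1 against UPF1-2. Of 9306 genes, 3401 were above and 3296 below with UPF1-1, and 3342 and 3485 with UPF1-2. Members at 1 TPM in total RNA, a setting added after the data were seen, gave 50 and 61 recovery calls, with no share over all genes beside them.

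Leaving out each replicate in turn gave 0 to 3 calls for UPF1-1 against GFP and for UPF1-1 against UPF1-2, 68 to 92 and 84 to 106 for recovery with UPF1-1 and UPF1-2, and 0 to 14 for the isoform difference. All genes had 135 to 599 higher and 71 to 542 lower for UPF1-1 against GFP. For UPF1-1 against UPF1-2 they had 13 to 250 and 4 to 201. For recovery they had 2934 to 3781 above and 4418 to 5095 below with UPF1-1. With UPF1-2 they had 3080 to 3840 above and 4426 to 5332 below. The plasma membrane minus SLC25A value then ranged from -0.12 to -0.027 (UPF1-1 against GFP), -0.03 to -0.01 (UPF1-2 against GFP), -0.16 to -0.07 (UPF1-1 against UPF1-2), -0.38 to -0.37 and -0.84 to -0.82 (recovery with UPF1-1 and UPF1-2) and 0.18 to 0.26 (isoform difference). At 5 TPM it was -0.11 for UPF1-1 against GFP, 0.075 for UPF1-2 against GFP and -0.06 for UPF1-1 against UPF1-2. For recovery with UPF1-1 it was -0.26 and -0.66 with pseudocounts of 0.1 and 1, -0.20 at 5 TPM, -0.28 for members at 1 TPM in total RNA and -0.093 for those with a pseudocount of 0.1. For recovery with UPF1-2 it was -0.63 with a pseudocount of 0.1, -0.44 at 5 TPM, -0.67 for members at 1 TPM in total RNA and -0.61 for those with a pseudocount of 0.1. For the isoform difference it was 0.27 and 0.15 with pseudocounts of 0.1 and 1, 0.30 for members at 1 TPM in total RNA and 0.33 for those with a pseudocount of 0.1.

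With unequal medians, with or without the block, recovery changed sign by construction, since the typical gene then rises. With UPF1-1 it was 0.96 for SLC25A5, 1.62 for SLC1A5, 1.69 for SLC25A39, 1.71 for SLC25A23, 1.74 for SLC25A14, 1.75 for SLC25A6, 2.02 for SLC27A5 and 2.05 for SLC25A33. With UPF1-2 it was 1.34 for SLC25A23, 1.53 for SLC25A5, 1.66 for SLC25A39, 1.81 for SLC25A33, 1.83 for SLC25A6 and 1.88 for SLC1A5. For the other changes the cause was not tested. Depth was not examined, so members near 1 TPM carry an error that these values do not show.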
